A study of Mus musculus with 8 samples.

Results

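The Kruppel-like factors described here were the 10 genes Klf2, Klf3, Klf4, Klf5, Klf6, Klf7, Klf10, Klf11, Klf13 and Klf15, found in the count table by their Entrez identifiers among 27179 genes in all. All 10 were matched, and all 10 passed the filter on low counts that 14966 genes passed. The libraries came from neonatal cardiomyocytes (NCMs), heart muscle cells dissociated from the hearts of male C57Bl/6 J mice on postnatal day 0 (PND0), with 1 heart for each library. The dams breathed filtered air (FA, 4 libraries) or diesel exhaust (DE, 4 libraries) from embryonic day E0.5 to E17.5, and all had been mated in FA. All cell suspensions, FA and DE alike, were held for 1 hour in medium with Ara-C, which is toxic to dividing cells, so that fibroblasts could attach and be left behind, and surrounding vascular and atrial tissue had been trimmed away. The comparison asked how exposure before birth changed transcripts in these cells at birth.

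Kruppel-like factors (KLFs) are transcription factors with zinc fingers at the C-terminal end that bind GC-rich and CACCC-containing DNA, and the remainder of each protein recruits co-activators or co-repressors. Klf2 and Klf4 are the flow-induced factors of endothelium, where they keep vessels quiescent. Klf15 is a glucocorticoid-induced factor that in the heart restrains growth and favours the use of lipids and amino acids, while Klf5 is linked to vascular remodelling and lipid use, and Klf10 and Klf11 are induced by TGF-beta.

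Start-site sequences of 8 of the 10 genes were present in the RefSeq promoter table for GRCm38.p6, and those of Klf2, Klf4 and Klf15 are printed because Klf2 and Klf15 had the smallest p-values of the family and Klf4 is the close relative of Klf2. Each runs 5′ to 3′ on the strand of its gene, from 250 bases before a start to 50 bases after it. Capitals mark the CACCC box that KLF proteins bind (CACCC or, on the other strand, GGGTG) and the E-box that clock and MYC-family proteins bind (CACGTG). The windows are chr8:72318812-72319111 (+ strand) for Klf2, chr4:55532426-55532725 (- strand) for Klf4 and chr6:90462326-90462625 (+ strand) for Klf15. The Klf2 and Klf4 windows span the 5′ end of the annotated gene. The Klf15 window belongs to a start inside the gene, whose 5′ end is at chr6:90461043.
Klf2: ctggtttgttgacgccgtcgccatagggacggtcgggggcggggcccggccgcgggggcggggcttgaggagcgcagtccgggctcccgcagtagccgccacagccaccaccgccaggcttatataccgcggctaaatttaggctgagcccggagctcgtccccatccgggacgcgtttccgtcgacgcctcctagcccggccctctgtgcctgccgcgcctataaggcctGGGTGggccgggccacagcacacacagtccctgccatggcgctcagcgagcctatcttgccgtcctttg
Klf4: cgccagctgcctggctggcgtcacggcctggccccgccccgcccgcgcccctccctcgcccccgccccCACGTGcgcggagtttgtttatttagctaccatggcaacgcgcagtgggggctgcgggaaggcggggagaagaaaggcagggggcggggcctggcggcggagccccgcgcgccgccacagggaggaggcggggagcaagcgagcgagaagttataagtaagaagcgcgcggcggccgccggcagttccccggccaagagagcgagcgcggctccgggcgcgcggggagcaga
Klf15: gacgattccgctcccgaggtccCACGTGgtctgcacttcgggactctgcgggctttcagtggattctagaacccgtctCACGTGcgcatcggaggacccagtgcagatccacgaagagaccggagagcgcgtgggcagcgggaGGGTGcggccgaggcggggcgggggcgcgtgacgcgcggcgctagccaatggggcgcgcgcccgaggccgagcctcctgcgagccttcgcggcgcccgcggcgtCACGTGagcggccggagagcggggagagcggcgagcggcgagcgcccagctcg
The Klf2 window held 1 CACCC box and no E-box, the Klf4 window no CACCC box and 1 E-box, and the Klf15 window 1 CACCC box and 3 E-boxes. At least 3 E-boxes occurred in 29 of 32851 windows of the same length (0.0883%), a count looked up after the Klf15 window had been seen. At least 1 CACCC box was found in 57.52% of all windows and at least 1 E-box in 7.15%. The 8 KLF windows had 58.33 to 77.67% GC, against a median of 52.67% over all windows, and all 8 held the GC box GGGCGG or CCGCCC, which 35.66% of all windows held. The letters AGAACA or TGTTCT, which are only part of the glucocorticoid receptor motif, were in none of the 8 and in 18.97% of all windows. The full receptor motif was not searched. The MEF2-like site CTATTTATA or TATAAATAG, present in 0.4292% of all windows, was also in none of the 8. These are matches of letters and were not tested as binding sites. Klf5 and Klf10 had no entry.

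Library totals were 17943024 to 39839737 counts. Over all genes, 868 (5.80%) were called by edgeR's quasi-likelihood test, 536 higher in DE (3.58%) and 332 lower (2.22%), where a call needed a Benjamini-Hochberg adjusted p of 0.05 or less and a difference of at least 25%. The summed level of 12 cardiomyocyte markers was 69322 to 76554 CPM (the count of a gene scaled to the effective size of its library) in FA and 54625 to 63725 in DE, and that of 9 fibroblast markers was 2045 to 3532 CPM in FA and 3736 to 6284 in DE, so neither pair of groups overlapped. Of these, 2 cardiomyocyte markers (Myh6 and Pln) were called lower and 3 fibroblast markers (Col1a1, Dpt and Dcn) higher. Myh6 had means of 23299 CPM in FA and 14622 CPM in DE, a large part of the difference in the cardiomyocyte sum. Actc1 (log2 fold change -0.20) and Tnnt2 (-0.06) were not called. The median log2 fold change was -0.15 over the 12 cardiomyocyte markers (11 negative, 1 positive) and 0.67 over the 9 fibroblast markers (9 positive). DESeq2 and the likelihood ratio test each called 7 of the 9 fibroblast markers higher and 3 of the 12 cardiomyocyte markers lower, and limma-voom called 3 and 2. Myh6 and Col1a1 kept their calls without each library in turn, while Pln lost its call without any FA library or DE replicate 3 or 5, Dpt without FA replicate 2, 3 or 4 or DE replicate 3, and Dcn without FA replicate 2, 3 or 4 or DE replicate 1, 3 or 7. The 12 endothelial markers summed to 1255 to 1638 CPM in FA and 1345 to 1968 in DE with 0 called (6 at an unadjusted p under 0.05, 3 called higher by DESeq2 and by the likelihood ratio test, 0 by limma-voom), and 10 leukocyte markers to 14.6 to 21.7 and 18.6 to 30.2 CPM. Of 7 tested leukocyte markers 6 were positive (median log2 fold change 0.41), with 0 called by edgeR's quasi-likelihood test and 1 called higher by DESeq2 and by the likelihood ratio test. All 4 atrial markers were positive (median 0.29) with 0 called. The 4 hepatocyte markers summed to 1.02 to 2.07 CPM over FA libraries and 1.599 to 3.167 over DE libraries, with Alb and Afp at 3 counts each over all libraries, Ttr at a mean of 0.559 CPM in FA, and Apoa1 at 0.564 to 1.10 CPM in FA against 1.09 to 2.69 in DE (1 hepatocyte marker was called higher by DESeq2 and by the likelihood ratio test, 0 by edgeR's quasi-likelihood test). The 7 skeletal muscle markers summed to 3.96 to 6.64 CPM over FA and 5.33 to 5.76 over DE libraries, mostly Tnni2, and Myod1 had 0 counts. The 8 smooth muscle and pericyte markers summed to 1557 to 2120 CPM over FA and 1099 to 1506 over DE libraries, without overlap, with 0 called by edgeR's quasi-likelihood test or limma-voom (2 at an unadjusted p under 0.05, 1 called lower by DESeq2 and by the likelihood ratio test). Most of that sum was Acta2 (log2 fold change -0.63, edgeR adjusted p = 0.0562), and over the 8 genes 4 fold changes were positive and 4 negative, with a median of -0.05 and 0.19 for Pdgfrb. Of 4 brown adipocyte markers, Cidea was called lower (-0.92, edgeR adjusted p = 0.00373), also without each library in turn, while the other 3 were positive (median of the list 0.46, Pparg 0.62 with edgeR adjusted p = 0.0565, and 1 called higher by DESeq2 and by the likelihood ratio test). Of 6 tested erythroid markers, all positive with a median of 0.41, Slc4a1 was called higher (0.95, edgeR adjusted p = 0.0422), a call lost without any FA library or DE replicate 1 or 3. The part of cell composition in the KLF values was not tested, and in bulk RNA fewer cells of a type and less RNA per cell cannot be told apart. In the sample names, a number 11 is shared by every FA library and by DE replicates 1 and 7, while DE replicates 3 and 5 have 12, and what the number stands for is not stated in the sources used here.

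No KLF passed the test: 0 of 10 were called higher and 0 of 10 lower. At an unadjusted p under 0.05 there were 4 of 10, Klf2, Klf5, Klf10 and Klf15, beside 25.6% of all tested genes. DESeq2 and the likelihood ratio test of edgeR each called Klf2 and Klf15 higher and Klf5 lower, and limma-voom called 0. Over all tested genes these tools called 10.9%, 10.7% and 5.75%. The groups did not overlap in 3 of 10, Klf2, Klf10 and Klf15, beside 14.7% of all tested genes. The mean log2 fold change was positive in 5 of the 10 genes and negative in the other 5, with a median of -0.02 against 0.0037 over all tested genes.

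**Figure D1:**
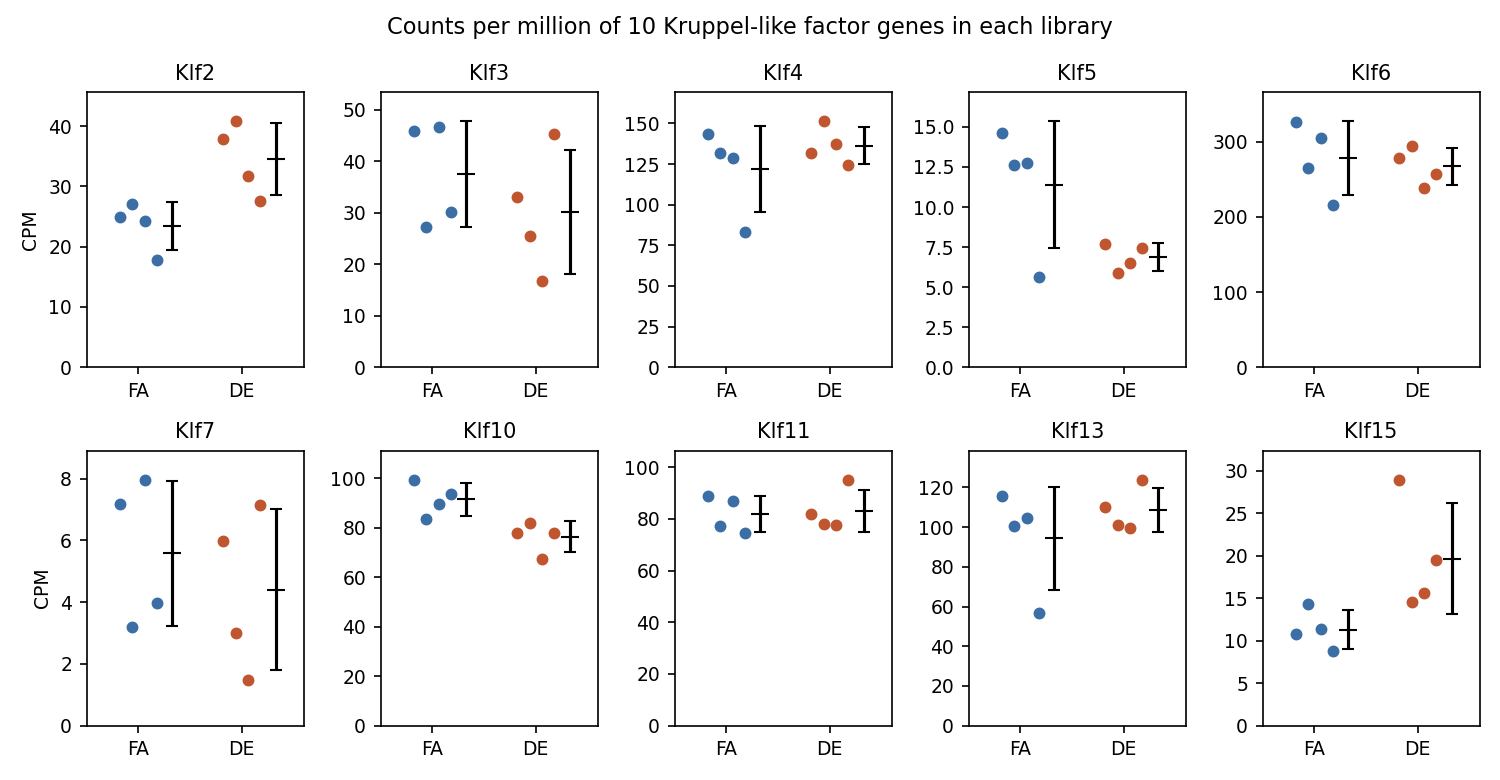
CPM (vertical axis, from 0, a separate scale for each gene) of the 10 KLF genes in the 4 FA libraries (blue) and the 4 DE libraries (orange), 1 point per library, with the group mean and SD in black beside the points. The 4 DE points lie above the 4 FA points for Klf2 and Klf15 and below them for Klf10, and in the other 7 panels the groups overlap.

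Klf15 had the smallest p of the family. Its level was 10.7, 14.3, 11.3 and 8.75 CPM in FA replicates 2, 3, 4 and 6, and 28.9, 14.5, 15.6 and 19.5 CPM in DE replicates 1, 3, 5 and 7. All DE libraries were above all FA libraries, but FA replicate 3 and DE replicate 3 nearly met, and DE replicate 1 was the highest. The means were 11.3 ± 2.29 CPM (SD, n = 4) in FA and 19.6 ± 6.54 CPM (SD, n = 4) in DE. The log2 fold change of 0.80 (SE 0.22, 95% interval 0.32 to 1.28) had an adjusted p of 0.0565 in edgeR's quasi-likelihood test. The exact two-sided permutation test of the group means gave p = 0.0286, the smallest that 4 against 4 libraries allow. Klf15 was called in 8 of 20 alternative settings and in none of the 8 that left out a library, with a log2 fold change of 0.55 without DE replicate 1. Among libraries with the name number 11 the log2 fold change was 1.10 (edgeR adjusted p = 0.0203), with a mean of 24.2 CPM in DE replicates 1 and 7, and DE replicates 3 and 5 had a mean of 15.1 CPM.

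Klf2 showed the second smallest p. It was at 24.9, 27.0, 24.3 and 17.8 CPM in FA replicates 2, 3, 4 and 6 and at 37.9, 40.8, 31.7 and 27.6 CPM in DE replicates 1, 3, 5 and 7. The groups did not overlap, although FA replicate 3 and DE replicate 7 nearly met. From a mean of 23.5 ± 4.00 CPM (SD, n = 4) in FA and 34.5 ± 5.95 CPM (SD, n = 4) in DE, the log2 fold change was 0.56 (SE 0.15, 95% interval 0.22 to 0.89; edgeR adjusted p = 0.0580). The exact two-sided permutation p was 0.0286. Klf2 was called in 5 of 20 alternative settings, of which 1 left out a library (DE replicate 7, 0.64, edgeR adjusted p = 0.0443). DE libraries of both name numbers were above FA, with means of 32.8 CPM for number 11 and 36.2 CPM for number 12.

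Klf4 was the more abundant of this endothelial pair. FA replicates 2, 3 and 4 held 143.2, 132.0 and 128.4 CPM, FA replicate 6 held 83.3 CPM, and DE replicates 1, 3, 5 and 7 held 132.0, 151.2, 137.2 and 124.4 CPM. Apart from FA replicate 6 the libraries of the groups were intermixed. The log2 fold change was 0.16 (SE 0.15, 95% interval -0.17 to 0.49; edgeR adjusted p = 0.529) and ran from 0.02 without FA replicate 6 to 0.25 without FA replicate 2.

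Klf5 had a lower mean in DE. FA replicates 2, 3, 4 and 6 had 14.6, 12.6, 12.8 and 5.66 CPM, and DE replicates 1, 3, 5 and 7 had 7.72, 5.85, 6.48 and 7.46 CPM. All DE libraries were below FA replicates 2, 3 and 4, and FA replicate 6 was below all DE libraries. The means were 11.4 ± 3.94 CPM (SD, n = 4) in FA and 6.88 ± 0.866 CPM (SD, n = 4) in DE, with a log2 fold change of -0.74 (SE 0.24, 95% interval -1.27 to -0.21; edgeR adjusted p = 0.0921) and an exact two-sided permutation p of 0.143. Without FA replicate 6 Klf5 was called lower, at -0.96 (edgeR adjusted p = 0.00618).

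Of the TGF-beta-induced pair, Klf10 had a small difference between groups that did not overlap. FA replicates 2, 3, 4 and 6 had 99.3, 83.6, 89.5 and 93.5 CPM, and DE replicates 1, 3, 5 and 7 had 78.1, 82.1, 67.5 and 78.0 CPM. FA replicate 3 and DE replicate 3 were the nearest libraries of the groups. The log2 fold change was -0.26 (SE 0.10, 95% interval -0.47 to -0.05; edgeR adjusted p = 0.129; exact two-sided permutation p = 0.0286), and 20 alternatives gave -0.30 to -0.19 with 0 calls. The FA libraries held 74.7 to 88.9 CPM of Klf11 and the DE libraries 77.4 to 95.03 CPM, with a log2 fold change of 0.02 (95% interval -0.21 to 0.25; edgeR adjusted p = 0.931).

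Klf6, induced by injury and growth factors in many tissues, had the highest CPM of the family, at 326.9, 265.0, 305.0 and 215.9 in FA replicates 2, 3, 4 and 6 and 238.8 to 294.4 in DE. Its log2 fold change was -0.06 (SE 0.13, 95% interval -0.35 to 0.23; edgeR adjusted p = 0.813), and the sign turned under 2 of 20 alternatives. Klf13, a partner of GATA4 in the developing heart, was at 100.6 to 115.8 CPM in FA replicates 2, 3 and 4, 56.5 CPM in FA replicate 6 and 99.4 to 123.8 CPM in DE. Its log2 fold change of 0.20 (SE 0.19, 95% interval -0.21 to 0.61; edgeR adjusted p = 0.526) ran from 0.02 without FA replicate 6 to 0.31 without FA replicate 2. FA replicate 6 had the lowest FA value in 7 of the 10 genes and FA replicate 2 the highest in 6. The 10 genes together made up 590.1 to 877.6 CPM in FA, lowest in replicate 6, and 692.4 to 796.1 CPM in DE.

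**Figure D2:**
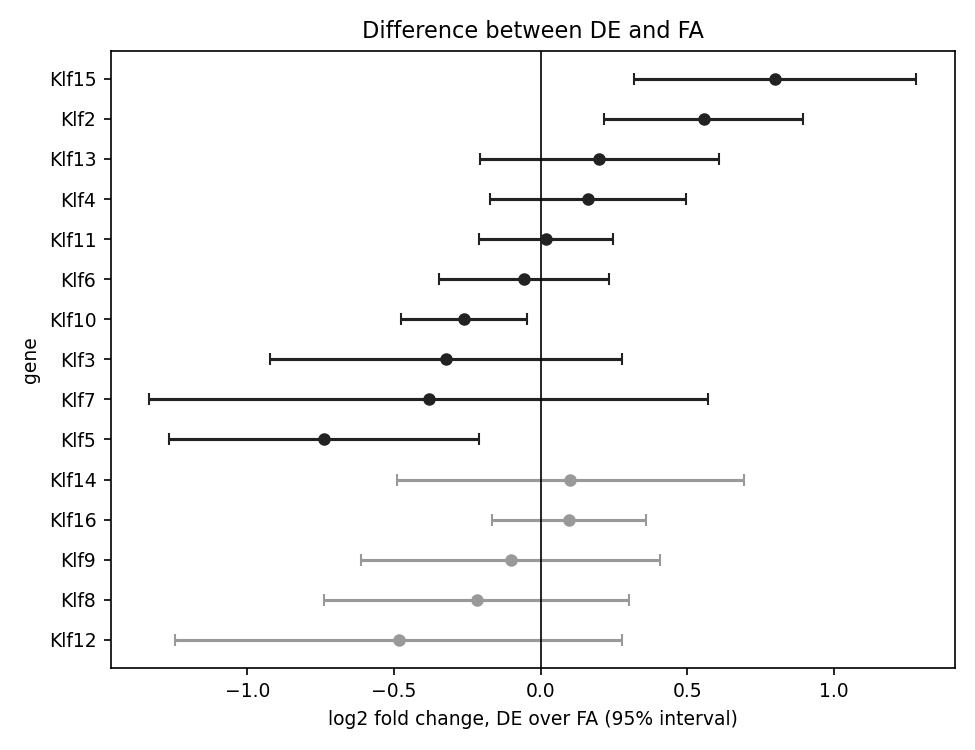
Log2 fold change of DE over FA with its 95% interval (horizontal axis) for the 10 KLF genes (black) and the 5 other tested KLF genes (grey), from edgeR's quasi-likelihood fit. The intervals of Klf2 and Klf15 lie above 0 and those of Klf5 and Klf10 below it, and none of the 15 genes passed the adjusted threshold.

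Klf3, which represses transcription through CtBP, and Klf7, a factor of developing neurons, differed widely within both groups. Klf3 was at 46.0, 27.2, 46.7 and 30.1 CPM in FA replicates 2, 3, 4 and 6 and at 33.1, 25.5, 16.7 and 45.3 CPM in DE replicates 1, 3, 5 and 7. Klf7 was at 7.19, 3.19, 7.96 and 3.98 CPM in the same FA libraries and at 5.99, 3.01, 1.47 and 7.14 CPM in the same DE libraries. Both genes were high in FA replicates 2 and 4 and DE replicate 7 and low in FA replicate 3 and DE replicates 3 and 5. The log2 fold changes were -0.32 for Klf3 (SE 0.27, 95% interval -0.92 to 0.28; edgeR adjusted p = 0.482) and -0.38 for Klf7 (SE 0.43, 95% interval -1.33 to 0.57; edgeR adjusted p = 0.610). Without DE replicate 5 they were -0.12 and -0.08, and without DE replicate 7 they were -0.59 and -0.70.

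The libraries also differed by transcript length. The median log2 deviation from the mean of all libraries, of genes with over 6000 bases of exon minus genes with under 2000, was 0.48 in FA replicate 2, 0.42 in FA replicate 4, 0.13 in DE replicate 7 and 0.11 in DE replicate 1. It was -0.06 in FA replicate 6, -0.21 in FA replicate 3, -0.37 in DE replicate 3 and -0.48 in DE replicate 5. Klf7 has 8050 bases of exon and Klf3 has 5386, while Klf11, which varied less between libraries, has 4086. Klf13, at 6669, and Klf5, at 5201, had their lowest value of all libraries in FA replicate 6, where the trend was -0.06. Whether transcript length accounts for any of these differences was not tested. Klf12 (5890 bases), which is outside the 10, was at 14.7, 6.93, 13.3 and 8.16 CPM in FA replicates 2, 3, 4 and 6 and at 11.9, 4.96, 4.04 and 10.3 CPM in DE replicates 1, 3, 5 and 7. With offsets for exon length in the fit, added after the data had been seen, the log2 fold changes were -0.26 for Klf3, -0.25 for Klf7 and 0.75 for Klf15, the last then called (edgeR adjusted p = 0.0446). The same offsets gave 0.43 for Klf2 (1847 bases of exon), not called (edgeR adjusted p = 0.0825) and the lowest of its 20 alternatives. Among libraries with the name number 11 alone, those of Klf3 and Klf7 were 0.05 and 0.21. The DE means for numbers 11 and 12 were 39.2 and 21.1 CPM for Klf3 and 6.57 and 2.24 CPM for Klf7, and within DE the number and the length trend cannot be told apart.

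**Figure D3:**
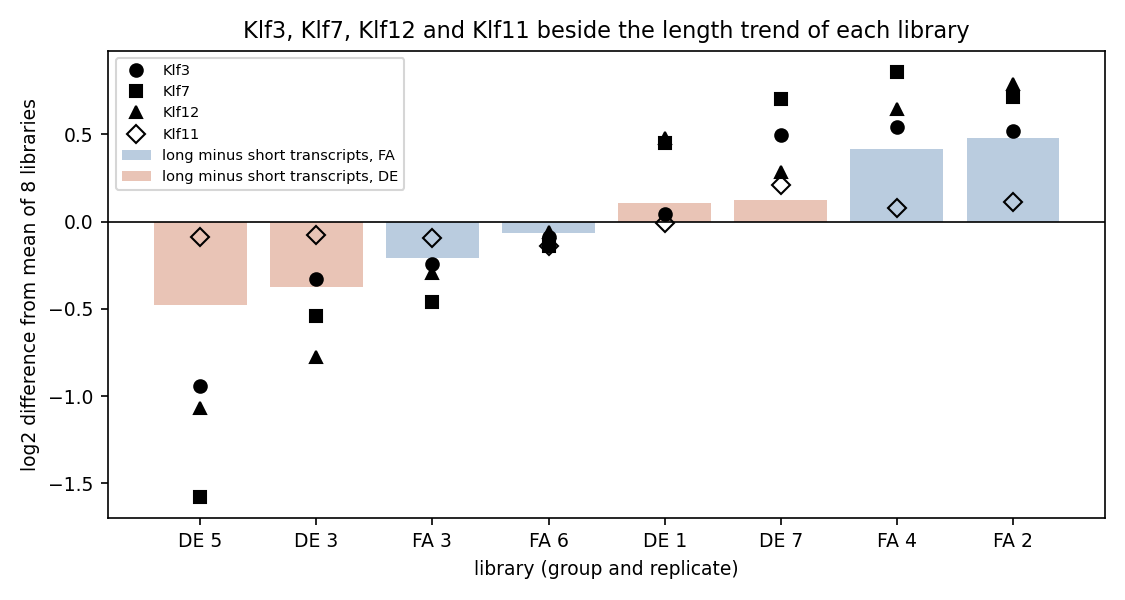
Log2 difference from the mean of the 8 libraries (vertical axis) for Klf3, Klf7, Klf12 and Klf11 (symbols), beside the difference between long and short transcripts (bars, FA blue and DE orange), for each library ordered by the bars. Klf3, Klf7 and Klf12 are lowest in DE replicate 5, where the bar is at -0.48, and above 0 in FA replicates 2 and 4, and Klf11 stays near 0 throughout.

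Levels were compared between genes as CPM per kb of exon. In FA the order was Klf6 (65.8 ± 11.6, SD, n = 4), Klf4 (40.2 ± 8.71), Klf10 (23.9 ± 1.73), Klf11 (20.0 ± 1.73), Klf13 (14.1 ± 3.91), Klf2 (12.7 ± 2.16), Klf3 (6.96 ± 1.91), Klf15 (4.10 ± 0.833), Klf5 (2.19 ± 0.757) and Klf7 (0.693 ± 0.291). The library ranges of Klf13 and Klf2 overlapped, as did those of Klf3 and Klf15, and the other neighbours did not overlap. In DE Klf6 (63.3 ± 5.76) and Klf4 (45.0 ± 3.72) were again the highest, followed by Klf11 (20.3), Klf10 (19.9), Klf2 (18.7) and Klf13 (16.3). Of these last 4, Klf11 and Klf10, Klf10 and Klf2, and Klf2 and Klf13 overlapped. Klf15 (7.13 ± 2.37) stood above Klf3 (5.60 ± 2.25) in DE, with overlapping ranges, and Klf5 (1.32) and Klf7 (0.547) were again the lowest.

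**Figure D4:**
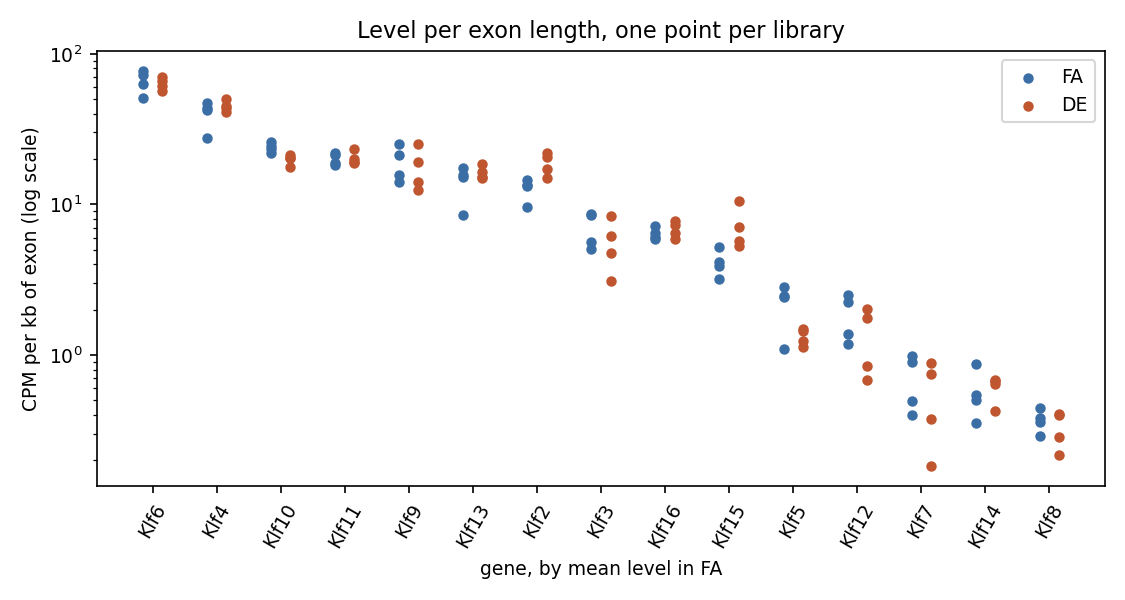
CPM per kb of exon (vertical axis, log scale) of 15 tested KLF genes ordered by their FA mean, 1 point per library, FA blue and DE orange. Klf6 and Klf4 are the highest in both groups, and Klf7, Klf14 and Klf8 are below 1.

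Of the 7 other KLF genes in the table, 5 were tested and 0 were called in either direction, with 0 at an unadjusted p under 0.05 and 0 called by DESeq2, the likelihood ratio test or limma-voom. Klf9, another glucocorticoid-induced KLF, had a mean of 85.3 ± 22.9 CPM over FA and of 79.6 ± 25.9 CPM over DE libraries (SD, n = 4; log2 fold change -0.10). Klf12 had a log2 fold change of -0.48 (SE 0.35; edgeR adjusted p = 0.402), Klf16 of 0.10, Klf8 of -0.22 and Klf14 of 0.10. Klf1, the erythroid KLF, had 18 counts and Klf17 had 6 over all 8 libraries, too few to test. Transcripts of any pair among the 10 genes shared a run of at most 36 bases (Klf3 and Klf13), with a median of 14 over 45 pairs, and how reads matching several genes were counted is not stated in the sources used here.

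In the machinery around the KLF proteins 0 genes were called by edgeR's quasi-likelihood test. Among the related Sp factors, 0 of 4 tested were called (0 at an unadjusted p under 0.05, median log2 fold change -0.23), and among co-activators and co-repressors 0 of 13 (4 unadjusted, median -0.10). Fhl3, a LIM-domain partner, had a log2 fold change of 0.63 (edgeR adjusted p = 0.0744) and was the gene of that list that DESeq2 called, while the acetyltransferase gene Ep300 had -0.48 (edgeR adjusted p = 0.178). None of the 3 ubiquitin ligases of KLF proteins was called (0 unadjusted, median -0.14). In the ERK5, MEF2 and CCM signalling that acts upstream of Klf2 and Klf4, 0 of 13 were called (4 unadjusted, median -0.15), with -0.56 for Mef2d (edgeR adjusted p = 0.0677, called lower by DESeq2) and -0.74 for Mef2a (edgeR adjusted p = 0.135). Over these 4 lists limma-voom called 0 genes, and the likelihood ratio test called Fhl3 and Mef2d alone.

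The endothelial genes under Klf2 and Klf4 had 0 of 10 called (3 unadjusted, 0 by DESeq2), with a median log2 fold change of 0.18. The means of Thbd, the anticoagulant receptor thrombomodulin, were 26.6 ± 2.16 CPM in FA and 35.5 ± 7.72 CPM in DE. Those of Edn1, the vasoconstrictor endothelin, were 25.3 ± 2.13 and 34.6 ± 8.87 CPM (SD, n = 4 each; edgeR adjusted p = 0.119 for both). For both genes the libraries of the groups overlapped. The list was not divided into genes that the KLF proteins induce and genes that they repress, so its median has no expected sign. The 12 endothelial markers had a median log2 fold change of 0.27. The genes linked to Klf5 had 0 of 5 called (2 unadjusted, 0 by DESeq2), and those of TGF-beta signalling, in which Klf10 and Klf11 act, 0 of 8 (1 unadjusted, 0 by DESeq2). Of 20 immediate early genes, which respond like Klf2, Klf4, Klf6 and Klf10 to handling and growth factors, 0 were called (1 unadjusted, 0 by DESeq2), with a median of 0.09 and 0.41 for Ier2 (edgeR adjusted p = 0.119). In these 4 lists the likelihood ratio test and limma-voom called 0 genes as well.

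Genes tied to Klf15 moved in both directions. Of 8 tested metabolic and channel genes 3 fell and 0 rose, while the median log2 fold change over the 8 had the opposite sign, at 0.06. Pdk4, the mitochondrial kinase that inhibits pyruvate dehydrogenase, fell from 366.7 ± 40.6 to 131.3 ± 33.8 CPM (log2 fold change -1.48, edgeR adjusted p = 0.000817). Slc25a20, the carnitine-acylcarnitine carrier, fell from 138.4 ± 12.5 to 63.8 ± 4.12 CPM (-1.12, edgeR adjusted p = 0.000181), and Cpt1b, the muscle carnitine palmitoyltransferase, from 16.03 ± 0.458 to 8.10 ± 1.13 CPM (-0.98, edgeR adjusted p = 0.00156). These 3 genes, which favour fatty acid use, are also targets of PPAR factors. The amino acid genes Bcat2 (0.36, edgeR adjusted p = 0.107) and Prodh (0.28, edgeR adjusted p = 0.297) were not called. Of 6 growth genes that Klf15 restrains, 3 had positive and 3 negative log2 fold changes, with a median of -0.0036. Among them Myh7, the slow myosin heavy chain, rose from 10022 ± 944 to 14494 ± 852 CPM (0.53, edgeR adjusted p = 0.0157). The natriuretic peptide genes Nppa (-0.82, edgeR adjusted p = 0.0821, called lower by DESeq2) and Nppb (0.69, edgeR adjusted p = 0.139) were not called. Among libraries with the name number 11 alone, Myh7 had nearly the same log2 fold change (0.52) but was not called (edgeR adjusted p = 0.0724), and the 3 genes of fatty acid use were called. At an unadjusted p under 0.05 there were 4 of the 8 metabolic and channel genes and 5 of the 6 growth genes, beside 25.6% of all tested genes. Within each of these lists those genes went in both directions.

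Of 11 glucocorticoid-response genes 3 rose and 1, Pdk4, fell, with a median log2 fold change of 0.32 (9 at an unadjusted p under 0.05, and the same counts by DESeq2, the likelihood ratio test and limma-voom). Fkbp5, a chaperone of the receptor, was at 17.7 to 25.3 CPM in FA and at 77.9, 35.5, 31.6 and 55.4 CPM in DE replicates 1, 3, 5 and 7 (1.20, edgeR adjusted p = 0.0231). Zbtb16, a zinc-finger repressor, was at 9.05 to 21.2 CPM in FA and at 87.6, 28.4, 27.9 and 95.2 CPM in the same DE libraries (1.98, edgeR adjusted p = 0.0231). Like Klf15, both were higher in DE replicates 1 and 7 than in DE replicates 3 and 5. Fkbp5 was no longer called without FA replicate 2 (1.11, edgeR adjusted p = 0.0832) or FA replicate 4 (1.21, 0.0690), nor Zbtb16 without FA replicate 2 (1.98, edgeR adjusted p = 0.0759) or 3 (1.98, 0.0559). Over the 8 fits that left out a library the log2 fold change of Fkbp5 ran from 0.90 (without DE replicate 1) to 1.37 (without DE replicate 5) and that of Zbtb16 from 1.66 (without DE replicate 7) to 2.22 (without DE replicate 5). Among libraries with the name number 11 alone both were called, at 1.62 for Fkbp5 (edgeR adjusted p = 0.00102) and 2.60 for Zbtb16 (edgeR adjusted p = 0.000442). Per1, which belongs to the clock as well, rose from 93.2 ± 19.2 to 166.8 ± 12.6 CPM (0.84, edgeR adjusted p = 0.0103) and stayed called without each library in turn. The receptor gene Nr3c1 had -0.47 (edgeR adjusted p = 0.110).

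Klf10 and Klf15 are also genes of circadian output. Of 16 clock genes 1 rose (Per1) and 2 fell, with a median log2 fold change of -0.02 (6 at an unadjusted p under 0.05). DESeq2 and the likelihood ratio test each called 1 higher and 3 lower, and limma-voom 1 and 2. Bhlhe41, a repressor of the clock, fell from 7.26 ± 0.897 to 4.77 ± 0.654 CPM (edgeR adjusted p = 0.0377), and Clock fell from 138.9 ± 27.4 to 81.1 ± 23.7 CPM (edgeR adjusted p = 0.0476). Each of these 2 calls was kept in 3 of the 8 fits that left out a library. Bhlhe41 lost it without FA replicates 2, 3 or 4 or DE replicates 3 or 5 (edgeR adjusted p up to 0.131), and Clock without FA replicates 2, 4 or 6 or DE replicates 3 or 5 (up to 0.144), with log2 fold changes of -0.69 to -0.53 and -0.95 to -0.65 over the 8 fits. Neither was called among libraries with the name number 11 alone (-0.48 for Bhlhe41 and -0.46 for Clock). Clock was highest in FA replicate 2 (164.6 CPM) and lowest in DE replicate 3 (59.1 CPM). Its groups overlapped, with FA replicate 3 (105.8 CPM) below DE replicate 7 (107.7 CPM). The part of the length trend in the Clock values was not tested.

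The genes most like Klf15 over the 8 libraries were sought by the root mean square difference of centred log2 CPM. Proser2 was the nearest (0.151 on the log2 scale), at 11.2 to 17.6 CPM in FA and 33.6, 22.5, 22.6 and 25.6 CPM in DE replicates 1, 3, 5 and 7. Agap2 (0.175) and Tent5b (0.185) came next, with means of 1.66 and 7.59 CPM in FA and 3.24 and 11.5 CPM in DE. Since they were chosen for likeness to Klf15 over the same libraries, their difference between DE and FA is a description and no test of it is given.

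**Figure D5:**
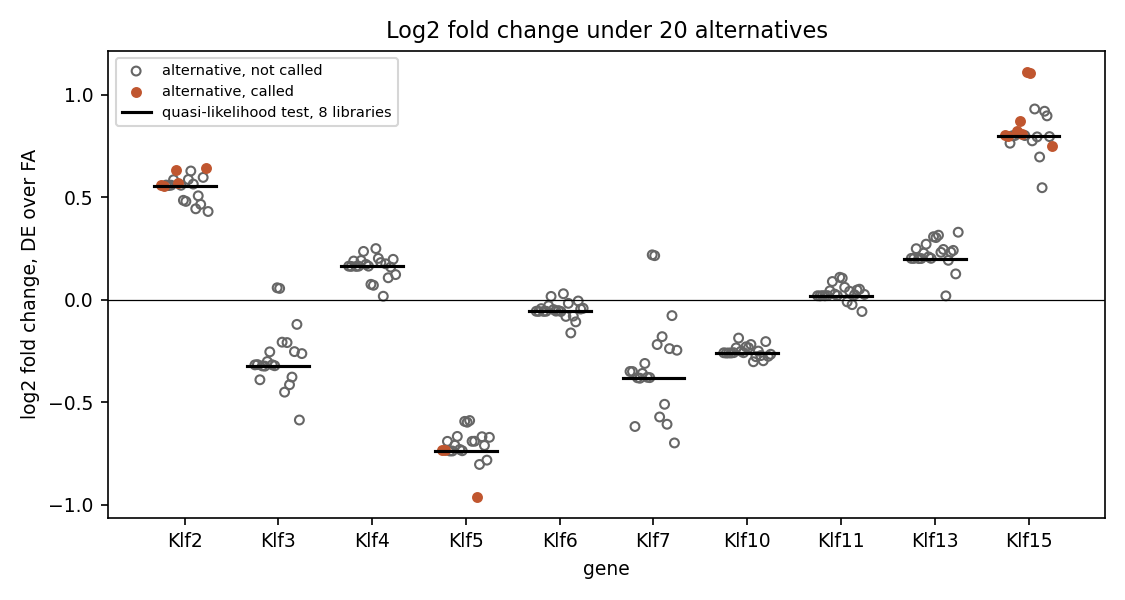
Log2 fold change of DE over FA (vertical axis) for each of the 10 KLF genes under 20 alternative settings (circles, filled where the gene was called) and in the quasi-likelihood test of all 8 libraries (black lines). Filled circles appear for Klf2, Klf5 and Klf15, and the circles of Klf3, Klf6, Klf7 and Klf11 lie on both sides of 0.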

How the data were processed

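RNA of NCMs from 8 male neonates was sequenced from poly-A libraries of a stranded kit. The authors aligned reads to mm10 with TopHat, marked duplicates with Picard without removing them, processed alignments with GATK and counted reads per gene with featureCounts. What they deposited is a table of unnormalized counts, 1 line for each Entrez gene. The strand setting and the counting annotation are not given in the sources used here, and duplicates left in the counts make counting error look smaller than it is.

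Symbols came from a RefSeq table of GRCm38.p6, and 1904 of 27179 genes had none. filterByExpr (minimum count 10) kept 14966 genes. Counts were scaled by TMM and fitted with the quasi-likelihood test of edgeR 4.0.16 in R 4.3.3 over 4 FA and 4 DE libraries, adjusted by Benjamini-Hochberg over all tested genes and called at 0.05 with a difference of at least 25%. SE and 95% intervals come from that fit. The permutation tests used log2 CPM with a prior count of 2. Alternatives used limma 3.58.1, DESeq2 1.42.0, other scaling, other filters, the name number and each library left out, and exon-length offsets were added later for the 92.55% of tested genes with a length. Steps were checked on simulated data. Total counts ran from 17943024 to 39839737, and the dispersion corresponded to a biological variation of 15.95%.

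The methods state fewer libraries per group than the labels, and all labelled libraries were used. Each library is 1 heart, but whether hearts came from different litters is not stated, so p-values measure the spread between these hearts. The members and lists were chosen with earlier results of these data known. Named were all listed KLF genes, up to 4 called and 2 uncalled genes of each pathway list, up to 3 genes of each marker list by level, and the 3 genes most like the KLF with the smallest adjusted p. The genes Afp, Myod1, Pln, Dpt, Dcn and Slc4a1 were named after their values had been seen.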

Additional observations from a re-analysis of the deposited data

Results flagged for a closer look

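A library was counted as standing apart where its gap to the nearest of its group of 4 was large against the range of the group, by Dixon's 95% criterion, which chance meets in about 1 in 20 groups. Of 102 groups (51 named genes in FA and in DE) 5 met it, and 0 of these were among the 10 KLF genes. Klf14 was at 1.29 CPM in DE replicate 3, with the nearest DE library at 1.97 CPM. Prodh was at 7.47 CPM in FA replicate 3, with the nearest at 5.48 CPM, and Agap2 was at 1.99 CPM in the same library, with the nearest at 1.57 CPM. Pdgfa was at 32.7 CPM in DE replicate 5, with the nearest at 27.6 CPM. Per1 was at 64.5 CPM in FA replicate 6, with the nearest at 101.6 CPM.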

How the results depend on the processing

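The 10 KLF fold changes were recomputed under 20 alternatives: 175 of 200 kept their sign and call, 16 gained a call and 9 changed sign. DESeq2 and the likelihood ratio test each called 2 KLF genes higher and 1 lower. Library totals alone and no filter on low counts called 2 higher each, and upper quartile scaling, the name number as a term, number 11 only and exon-length offsets 1 higher each. Leaving out a library gave 0 to 1 higher (1 without DE replicate 7) and 0 to 1 lower (1 without FA replicate 6). Klf6 turned to 0.0157 with library totals, and leaving out a library moved it from -0.16 to 0.0286 (0.0286 without FA replicate 2). Klf3 turned to 0.0577 with the name number as a term and 0.0546 in number 11 only, and Klf7 to 0.218 and 0.214. Klf11 ran from -0.0580 (without DE replicate 7) to 0.0601 (without FA replicate 2) when a library was left out. The causes were not tested. Calls over all genes ranged from 114, with the 25% difference built into the test, to 1633 with DESeq2, with 448 under the name number as a term, 260 in number 11 only, 1472 with length offsets, and 237 to 1168 when a library was left out. No paired analysis was possible because FA and DE share 1 replicate number. At 59 to 269 counts in a library, Klf7 had the fewest counts of the 10.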
